A study of Rattus norvegicus with 8 samples.

Results

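This account covers the potassium channel genes of the rat thoracic aorta, taken as every row of the gene table whose name starts with Kcn: 80 of 19238 genes. By the letters after Kcn they fall into 35 voltage-gated subunits (Kv: Kcna, Kcnb, Kcnc, Kcnd, Kcnf, Kcng, Kcnh, Kcnq, Kcns and Kcnv), 13 inward rectifiers (Kir: Kcnj), 10 tandem-pore background channels (K2P: Kcnk), 7 calcium-activated channels and their sodium-activated relatives (KCa: Kcnma, Kcnn and Kcnt) and 15 auxiliary subunits and regulators (Kcnab, Kcne, Kcnip, Kcnmb and Kcnrg). RNA sequencing of the thoracic aorta compared 4 libraries of Goto-Kakizaki (GK) rats, an inbred strain with inherited non-obese diabetes that the labels place under diabetic macroangiopathy, with 4 libraries of Wistar controls, all from rats of 7 to 8 weeks and with no treatment named. The source name reads GK for the controls too, and the titles, strains and group labels were used instead. Strain and diabetes split the libraries in the same way and cannot be told apart. Only the titles speak of single rats, and a p-value here measures the spread between libraries, which may be technical.

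Potassium channels let potassium leave the cell and so pull the membrane of a smooth muscle cell away from the voltage at which calcium channels open, which relaxes the artery. In arterial muscle the main currents are known to run through the large-conductance calcium-activated BK channel (pore Kcnma1, helper subunit Kcnmb1), voltage-gated channels of the Kcna and Kcnq groups, the ATP-sensitive channel (pore Kcnj8 with the sulfonylurea receptor Abcc9), inward rectifiers and the acid-sensitive background channel Kcnk3. The endothelium carries the small and intermediate calcium-activated channels Kcnn3 and Kcnn4. Auxiliary subunits form no pore but set voltage range, calcium sensitivity and delivery to the membrane.

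Depth and library make-up bear on these genes, many of which are weakly expressed. Gene counts per library totalled 11760397 to 16266151. Levels are given as CPM (library totals scaled with TMM factors) in the order of the library numbers 7, 8, 9 and 10, group means as ± SD with n = 4, and differences as log2 fold changes of GK over control ± SE. All 8 smooth muscle markers listed were present in every library, but their summed level ran from 4743 to 12780 CPM in controls and from 2476 to 7202 CPM in GK, and 1 of the 8 (Lmod1) passed the test, lower in GK. GK 9 stood apart with skeletal muscle markers (6 of 8 in the table) summing to 16650 CPM against 17.9 to 47.9 elsewhere, and neuron markers (7 of 8 in the table) summing to 1298 CPM against 3.58 to 27.2. Control 7, GK 7 and GK 8 held cardiomyocyte markers (7 of 8 in the table) at 515, 1010 and 1994 CPM against 5.36 to 11.02 in the other libraries. Adipocyte markers were present throughout, at 5345 to 8244 CPM in controls and 7598 to 16030 CPM in GK. Of these, 2 of the 8 (Plin4 and Cidec) passed the test, higher in GK. Lep alone of the 8 was lower in GK, by a difference of -1.92 ± 0.67, and did not pass (edgeR adjusted p = 0.111). In these whole pieces of vessel, fewer cells of a type and less RNA per cell cannot be told apart.

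At a mean of at least 1 CPM over the 8 libraries, 43 of the 80 channel genes counted as expressed: 18 Kv, 7 Kir, 2 K2P, 6 KCa and 10 auxiliary genes. Of the 80, 24 reached 1 CPM in each library and 14 in none. The set depends on the libraries numbered 9, GK 9 above all. The count was 37 without GK 9, 41 without control 9 and 35 over the 6 libraries not numbered 9. Over the controls alone it was 34, and over the GK libraries alone 47.

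The background channel Kcnk3 was by far the highest of them. Per length and depth, as the authors' FPKM, Kcnk3 had 53.3 ± 18.8 in controls and 69.6 ± 16.97 in GK. Among the genes described here, the next in controls were Kcnmb1 at 16.1 ± 6.704, Kcnj8 at 15.7 ± 2.76, Kcnma1 at 11.99 ± 3.11 and Kcnh2 at 10.1 ± 3.58 FPKM. Below Kcnk3, neighbours in this order differed by less than the sum of their SD. In GK the order after Kcnk3 was Kcnj8 and Kcnn3 (12.2 ± 2.04 and 8.83 ± 9.23 FPKM) and then Kcnj11, Kcnma1, Kcnh2 and Kcnmb1, between 5.51 and 4.09 FPKM, and below Kcnk3 neighbours again differed by less than the sum of their SD.

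**Figure D1:**
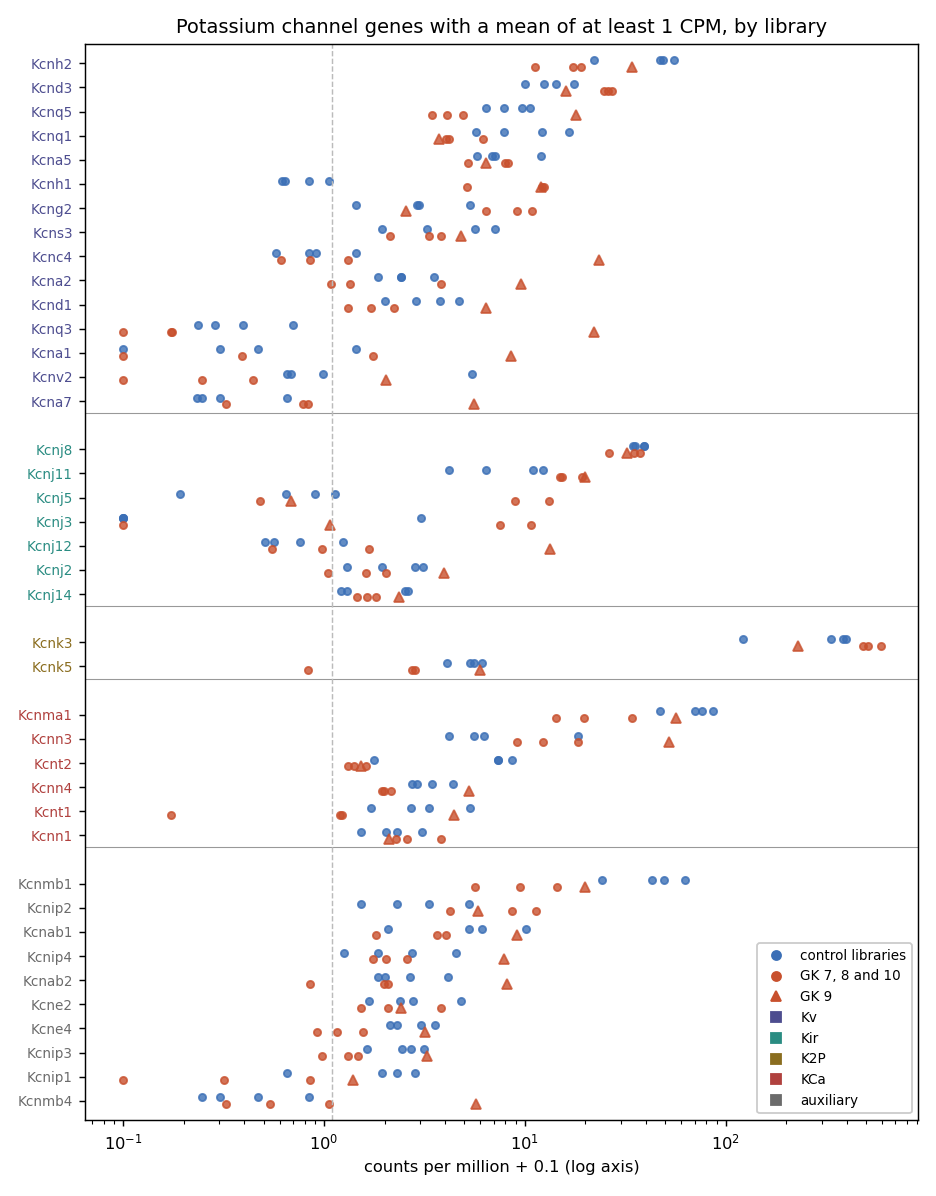
CPM plus 0.1 on a log axis for 40 of the 43 potassium channel genes with a mean of at least 1 CPM, grouped by family (label colour) and ordered by mean level; each point is a library and GK 9 is a triangle. Kcnk3 lies between 121 and 590.3 CPM, above each other gene in the same library. GK 9 lies far above the other libraries for genes such as Kcnq3 (22.1 CPM) and Kcnj12 (13.2 CPM).

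Across the whole gene table, 13673 genes were deep enough to test and 39 of the 80 channel genes were among them. Of these 39, 5 passed edgeR's quasi-likelihood test at a Benjamini-Hochberg adjusted p under 0.05 (12.8%), against 7.28% of all genes tested. Kcnh1 was the 1 that was higher in GK (3.96% of all genes), and Kcnc2, Kcng4, Kcnt2 and Kcnmb1 were the 4 that were lower (3.31% of all genes). The difference in share rests on a handful of genes, and no test of the set was made. Kcnc2 and Kcng4 were deep enough to test only through the controls, and Kcnh1 only through the GK libraries. With a filter at a mean of 1 CPM over all libraries, 3 of 43 channel genes passed (6.98%), against 6.37% of all genes. The median log2 fold change of the 39 was -0.19, with 24 below 0 and 15 above, beside 0.00 for all genes tested. For 6 of the 39 (15.4%) the groups did not overlap, near the share of all genes tested (15.6%): the 5 genes named and Kcnj11.

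**Figure D2:**
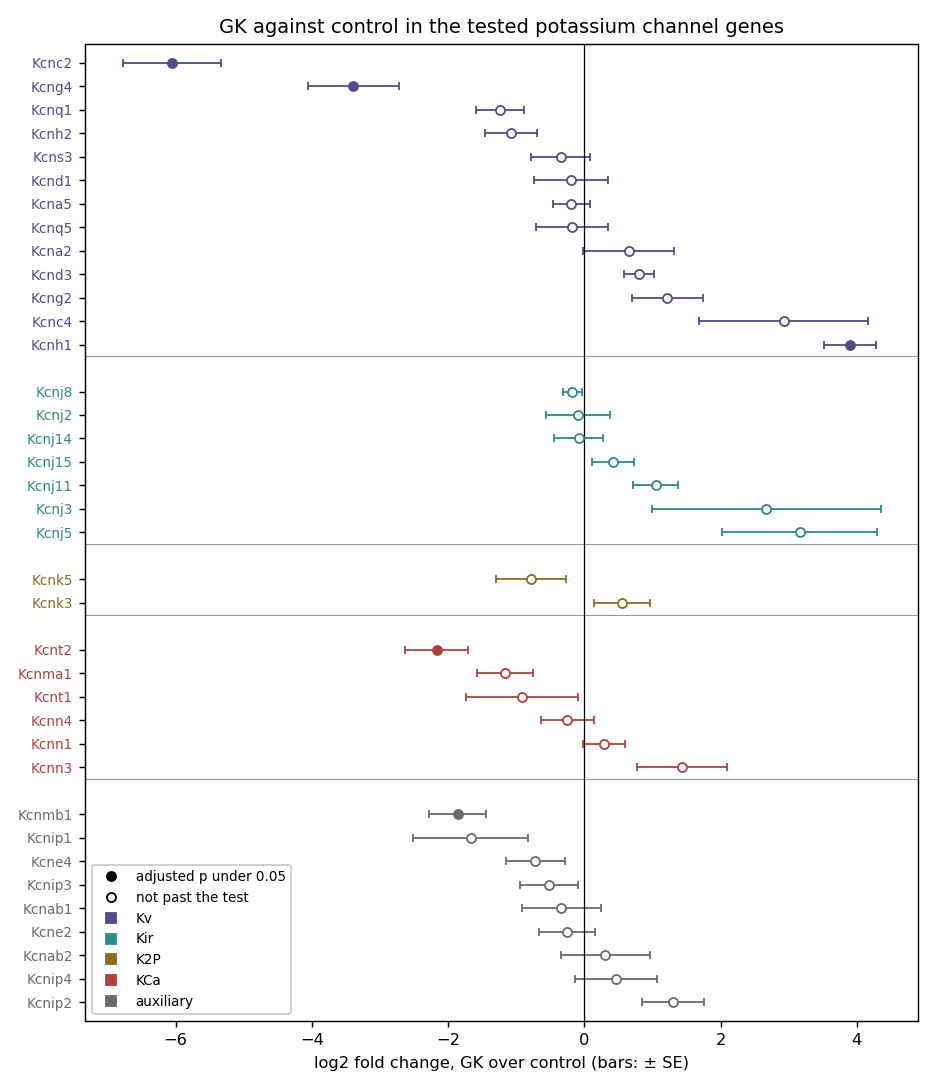
Log2 fold change, GK over control, with its SE for 37 of the 39 tested potassium channel genes by family; filled points passed the test and open points did not. Kcnh1 (3.90) stands alone on the right among filled points, and Kcnc2 (-6.05), Kcng4 (-3.39), Kcnt2 (-2.17) and Kcnmb1 (-1.86) lie on the left.

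Kcnh1, the ether-a-go-go voltage-gated channel known mainly from brain, averaged 0.686 ± 0.206 CPM in Wistar aorta and 10.3 ± 3.54 CPM in GK aorta. Its CPM were 0.514, 0.7395, 0.536 and 0.955 in the controls and 12.4, 12.1, 11.9 and 5.06 in the GK libraries. Every GK library stood above every control, and GK 10 had less than the other 3. The counts behind these were 7, 8, 8 and 14 reads against 170, 176, 184 and 67, from a gene at chromosome 13, 110920737 to 111232269 in the coordinates of the file, whose build is not stated in its header or labels. The difference was 3.90 ± 0.38 (edgeR adjusted p = 0.00279), and it passed in all 18 alternative analyses, with values from 3.72 to 4.17. A catalogued lncRNA of 1088 bases at the end of the locus, NONRATT008582.2 (111230212 to 111231299), rose with it by 4.02 ± 0.60 (edgeR adjusted p = 0.0141). Its counts were 4, 0, 3 and 1 in controls and 44, 32, 44 and 14 in GK. The strand of the counting is not stated, so reads of the lncRNA and of the channel gene cannot be told apart.

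Kcnc2, the fast voltage-gated channel of rapidly firing neurons, showed the reverse. It had 33, 16, 15 and 31 counts in the controls and 0, 0, 0 and 1 in GK, or 2.42, 1.48, 1.005 and 2.12 CPM against 0, 0, 0 and 0.0755. The group sums were 95 and 1 counts, a 100.3-fold ratio in CPM (95% interval 17.6 to 4002, for counting error only). The test gave -6.05 ± 0.72 (edgeR adjusted p = 0.0067), a fitted value that depends on how a near-zero group is handled, and it passed in all 17 alternatives in which the gene could be tested. With 1.76 ± 0.636 CPM in controls this is a weakly expressed gene, at chromosome 7, 54980120 to 55159351. In GK 9, the library with neuron markers at 1298 CPM, Kcnc2 had 0 counts. Which cells gave the Kcnc2 counts of the controls was not tested.

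Kcng4 encodes a silent subunit that forms no channel alone and alters other voltage-gated channels when built in with them. It lay just at the edge of detection in controls and close to 0 in GK. The CPM were 0.881, 0.924, 1.14 and 1.02 in controls and 0, 0.137, 0.194 and 0 in GK, from 54 and 5 counts in all, at chromosome 19, 52270927 to 52282877. The 4 controls were close together and far above the 4 GK libraries, a difference of -3.39 ± 0.67 (edgeR adjusted p = 0.0263). The call was lost when any of 7 libraries (each but GK 9) was left out, with adjusted p between 0.0533 and 0.0876, and with no filter on low counts (adjusted p = 0.0551). It was also lost with the mean log2 level of the fat markers (the fat score) as a covariate, at -2.71 (adjusted p = 0.118), and with that of the smooth muscle markers, at -3.05 (adjusted p = 0.155). Without GK 9 the value was -4.12 (adjusted p = 0.0103), and 22.1% of all genes passed. With any of the other 7 libraries left out, 0.974% to 4.24% of all genes passed, against 7.28% in the main fit. The share was 3.4% with no filter, 4.93% with the fat score and 0.753% with the smooth muscle score.

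Kcnt2, a sodium-activated channel related to the BK pore, was at 7.27, 1.66, 8.51 and 7.23 CPM in controls and 1.31, 1.51, 1.42 and 1.21 CPM in GK. The GK libraries lay within a narrow band, and control 8 sat just above that band while the other 3 controls were several-fold higher. The difference was -2.17 ± 0.46 (edgeR adjusted p = 0.031), at chromosome 13, 57131395 to 57521836. Without control 8 it was -2.49 (adjusted p = 0.00634). Leaving out any of controls 7, 9 and 10 or GK 7, 8 and 10 ended the call, with adjusted p between 0.0604 and 0.0977. So did the fat score as a covariate, at -1.15 (adjusted p = 0.397), and the smooth muscle score, at -2.22 (adjusted p = 0.153). With those libraries left out the value stayed between -2.22 and -1.97. Fewer of all genes passed in these fits too: 0.974% to 4.07% with those libraries left out, against 7.28% in the main fit. The share was 4.93% with the fat score and 0.753% with the smooth muscle score.

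Kcnmb1, the helper subunit that raises the calcium sensitivity of the BK channel and is known as a smooth muscle gene, was the most abundant of the 5. It had 24.1, 42.7, 49.4 and 62.3 CPM in controls and 5.55, 9.34, 19.9 and 14.3 CPM in GK, means of 44.6 ± 15.9 and 12.3 ± 6.21. The lowest control was above the highest GK library, GK 9. The difference was -1.86 ± 0.42 (edgeR adjusted p = 0.0361). Leaving out any of 6 libraries (controls 8, 9 and 10 and GK 7, 8 and 10) ended the call, with values from -1.95 to -1.62 and adjusted p between 0.0640 and 0.118. The call was also lost with the fat score as a covariate, at -1.08 (adjusted p = 0.237), with the smooth muscle score and with library totals alone (-1.98, adjusted p = 0.0664). Fewer of all genes passed in these fits too: 0.974% to 4.24% with those libraries left out, against 7.28% in the main fit. The share was 4.93% with the fat score, 0.753% with the smooth muscle score and 3.46% with library totals alone. The gene lies at chromosome 10, 18906010 to 18919639, inside the interval of Kcnip1 (18558128 to 18942540), so that without strand some reads could belong to either. Kcnip1 itself had 104 counts over the controls and 34 over GK, against 2441 and 709 for Kcnmb1.

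**Figure D3:**
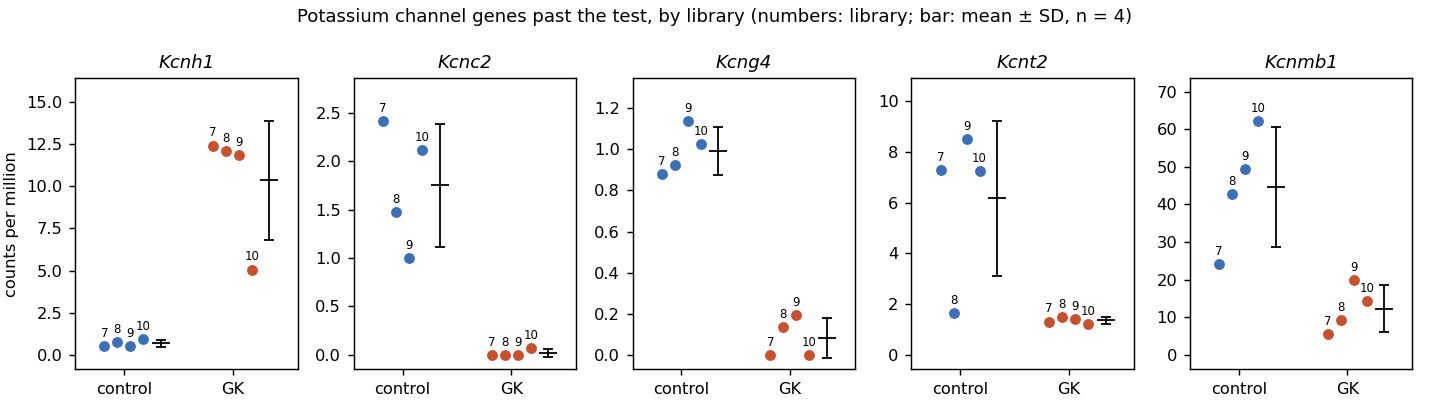
CPM by library (points, numbered) with the group mean ± SD (bars, n = 4 libraries) for the 5 potassium channel genes that passed the test, each panel on its own linear scale. No control point of Kcnh1 exceeds 0.955 CPM while the GK points lie at 5.06 to 12.4, and the other 4 genes are lower in GK with control 8 of Kcnt2 at 1.66 CPM.

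The sequences just before the start of these 5 genes show how different their promoters are. Each line holds the 250 bases before the RefSeq start in the GRCr8 build, 5′ to 3′ on the strand of the gene, with the E-box CANNTG, a site for basic helix-loop-helix factors, in capitals.
Kcnh1: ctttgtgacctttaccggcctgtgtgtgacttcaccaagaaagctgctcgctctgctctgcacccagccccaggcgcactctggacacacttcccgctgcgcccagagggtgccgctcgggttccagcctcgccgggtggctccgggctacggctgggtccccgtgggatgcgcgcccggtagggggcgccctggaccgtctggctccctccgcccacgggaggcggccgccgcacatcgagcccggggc
Kcnc2: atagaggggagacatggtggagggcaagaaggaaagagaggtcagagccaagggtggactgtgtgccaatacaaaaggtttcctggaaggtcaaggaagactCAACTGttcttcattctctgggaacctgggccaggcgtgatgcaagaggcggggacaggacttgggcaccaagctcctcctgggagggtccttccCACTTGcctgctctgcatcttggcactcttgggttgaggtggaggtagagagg
Kcng4: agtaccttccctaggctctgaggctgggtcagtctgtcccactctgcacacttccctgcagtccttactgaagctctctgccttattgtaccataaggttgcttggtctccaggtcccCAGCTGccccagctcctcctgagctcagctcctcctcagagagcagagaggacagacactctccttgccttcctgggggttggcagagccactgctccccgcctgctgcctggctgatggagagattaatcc
Kcnt2: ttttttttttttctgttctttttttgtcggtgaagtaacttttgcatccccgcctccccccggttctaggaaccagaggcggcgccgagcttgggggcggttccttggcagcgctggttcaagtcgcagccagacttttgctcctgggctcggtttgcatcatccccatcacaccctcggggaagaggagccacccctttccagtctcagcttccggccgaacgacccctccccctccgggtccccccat
Kcnmb1: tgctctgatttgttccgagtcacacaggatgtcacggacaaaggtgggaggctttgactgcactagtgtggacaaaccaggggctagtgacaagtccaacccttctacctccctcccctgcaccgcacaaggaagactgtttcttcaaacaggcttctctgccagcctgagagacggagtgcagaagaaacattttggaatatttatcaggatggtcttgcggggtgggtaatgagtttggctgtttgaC
The intervals are chr13:106252966-106253215, plus strand, for Kcnh1, chr7:49587364-49587613, plus strand, for Kcnc2 (the first of its 2 listed starts), chr19:64597889-64598138, minus strand, for Kcng4, chr13:54215057-54215306, plus strand, for Kcnt2, and chr10:19061849-19062098, plus strand, for Kcnmb1. The E-box of Kcnmb1 begins at the last base shown, so a single capital marks it. Counting also the 50 bases after the start, the 300 bases held 32 CG pairs in Kcnh1 and 18 in Kcnt2, but 6 in Kcnmb1, 5 in Kcnc2 and 2 in Kcng4. The median was 14.5 over the 60 promoters listed for 54 of the 80 channel genes and 7 over all 33469 promoters, so Kcnh1 and Kcnt2 have CG-rich starts and the other 3 do not. An E-box on either strand was in 68.3% of the channel promoters and 72.1% of all. The letters TATAAA were in 3.33% and 14.2%, and the CArG box, the site of serum response factor, in none of the 60 and in 1.64% of all. These matches describe letters in a window and are no evidence of binding.

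The 10 K2P genes, which leak potassium at rest, were represented in aorta by Kcnk3 and Kcnk5. Kcnk3 had 385, 398, 121 and 334 CPM in controls and 590.3, 482, 229.8 and 511 CPM in GK. The library numbered 9 was the lowest of its group both times, and the groups overlapped. The difference of 0.55 ± 0.41 did not pass (edgeR adjusted p = 0.409). Kcnk3 is also known from brown fat, and the summed brown adipocyte markers were 1545, 2898, 504 and 822 CPM in controls and 4887, 4927, 1440 and 4236 CPM in GK, and 1 of the 5 tested (Otop1) passed, higher in GK. With the fat marker score as a covariate the Kcnk3 value was -0.61 (adjusted p = 0.493), the opposite direction. That score ran from 6.9 to 7.89 in controls and from 7.6 to 8.68 in GK, so it overlaps little between the groups. With the library number as a block Kcnk3 passed (0.61, adjusted p = 0.0412), where 17.3% of all genes passed. Without both libraries numbered 9 it was 0.50 (adjusted p = 0.0648). The part of fat in the Kcnk3 values was not tested. Kcnk5, an alkaline-activated channel, was at 5.21, 3.98, 6.03 and 5.46 CPM in controls and 0.7299, 2.75, 5.87 and 2.64 CPM in GK, a difference of -0.78 ± 0.51 (edgeR adjusted p = 0.345). Kcnk2, the stretch-activated channel, averaged 0.336 ± 0.403 and 1.13 ± 0.773 CPM and was too low to test. Of the other 7, Kcnk1 and Kcnk13 reached at most 2.39 and 1.101 CPM in any library, Kcnk7 and Kcnk12 stayed below 1 CPM in all libraries, and Kcnk4, Kcnk9 and Kcnk10 had counts in GK 9 alone.

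The 13 Kir genes set the resting potential and, as Kcnj8 and Kcnj11, form the pore of ATP-sensitive channels. None of the 7 tested passed edgeR's test, and their median was 0.42. Kcnj8, the vascular pore, was the steadiest gene of the set. It had 39.05, 34.3, 39.2 and 35.4 CPM in controls and 37.1, 26.1, 32 and 34.96 CPM in GK, a difference of -0.18 ± 0.14 (edgeR adjusted p = 0.401). Kcnj11, the pore known from pancreatic beta cells and striated muscle, had 12.2, 10.8, 4.09 and 6.28 CPM in controls and 14.9, 19.1, 19.7 and 15.2 CPM in GK. Its groups did not overlap, yet the difference of 1.05 ± 0.33 missed the threshold (edgeR adjusted p = 0.084). In DESeq2's test Kcnj11 passed (1.07, adjusted p = 0.0244), where 15.7% of all genes passed. The receptor partners of Kcnj8 and Kcnj11 were also measured: Abcc9 averaged 333 ± 56.8 CPM in controls and 217 ± 55.3 in GK, and Abcc8 5.196 ± 2.57 and 6.88 ± 1.41. Neither passed, with -0.62 ± 0.22 (edgeR adjusted p = 0.115) for Abcc9 and 0.40 ± 0.34 (edgeR adjusted p = 0.466) for Abcc8. The classical inward rectifier Kcnj2 was low, at 2.2 ± 0.833 and 2.06 ± 1.27 CPM (-0.09 ± 0.47, edgeR adjusted p = 0.915), and so were Kcnj14 at 1.82 ± 0.762 and 1.72 ± 0.389 and Kcnj15 at 0.797 ± 0.248 and 1.06 ± 0.1603. Kcnj1, Kcnj4 and Kcnj16 stayed under 1 CPM in all libraries, and Kcnj10 and Kcnj13 passed 1 CPM in GK 9 alone.

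Kcnj3 and Kcnj5, which together make the acetylcholine-gated channel of the heart's atria, were high in GK 7 and GK 8 and low in GK 9 and GK 10. Kcnj3 was at 2.94, 0, 0 and 0 CPM in controls and 7.45, 10.6, 0.968 and 0 CPM in GK, and Kcnj5 at 1.03, 0.0924, 0.804 and 0.546 and 8.83, 13.04, 0.581 and 0.378. Both were highest in GK 8 and GK 7, and control 7 was the highest control for each, though for Kcnj5 it was close to control 9. GK 7, GK 8 and control 7 are the 3 libraries with cardiomyocyte markers, summing to 515, 5.36, 5.63 and 5.94 CPM in controls and 1010, 1994, 6.45 and 11.02 CPM in GK. In the other 5 libraries Kcnj3 had 0 to 0.968 and Kcnj5 0.0924 to 0.804 CPM. The atrial light chain Myl7 was at 0 or 0.0755 CPM in those 5, and at 53.1, 107 and 192 CPM in control 7, GK 7 and GK 8. The group differences of 2.67 ± 1.68 for Kcnj3 and 3.16 ± 1.14 for Kcnj5 did not pass (edgeR adjusted p = 0.331 and 0.121). Without GK 9, Kcnj5 passed at 3.55 (adjusted p = 0.0369), with the counts of GK 7 and GK 8 unchanged in it. Of all genes, 22.1% passed in that fit. With all 8 libraries Kcnj5 passed DESeq2's test (3.22, adjusted p = 0.0216), where 15.7% of all genes passed. The part of the heart markers in these values was not tested.

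The 35 Kv genes encode subunits of channels that open on depolarisation, among them silent subunits such as Kcng4 that form no channel alone. Of the 15 tested, 1 was higher (Kcnh1) and 2 were lower (Kcnc2 and Kcng4), and the median was -0.20. Among the highest were Kcnh2 and Kcnd3. Kcnh2, the hERG channel that ends the cardiac action potential, had 22.1, 54.9, 48.5 and 47.01 CPM in controls and 11.2, 17.3, 34.1 and 18.9 CPM in GK. Control 7 lay within the GK range. The Kcnh2 difference of -1.08 ± 0.38 did not pass (edgeR adjusted p = 0.112). Without GK 9 it did (-1.43, adjusted p = 0.0206), where 22.1% of all genes passed, against 7.28% with GK 9. Kcnd3, a fast inactivating A-type channel, went the other way, with 17.4, 12.4, 14.1 and 9.96 CPM in controls and 27.01, 25.9, 15.9 and 24.7 CPM in GK. GK 9 was again the exception, inside the control range. The difference was 0.80 ± 0.22 (edgeR adjusted p = 0.0657), or 0.95 without GK 9 (adjusted p = 0.0140). With all 8 libraries Kcnd3 passed DESeq2's test (0.81, adjusted p = 0.0155), where 15.7% of all genes passed. Its partner Kcnip2, which brings A-type channels to the membrane, was at 5.14, 2.22, 3.22 and 1.43 CPM in controls and 8.54, 11.2, 5.74 and 4.15 CPM in GK, 1.30 ± 0.45 with overlapping groups (edgeR adjusted p = 0.107).

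Neither Kcnq1 nor Kcnq5, members of the KCNQ group found in arteries, passed the test. Kcnq1 had 5.58, 12.02, 7.78 and 16.5 CPM in controls and 3.94, 6.11, 3.61 and 4.08 CPM in GK (-1.24 ± 0.35, edgeR adjusted p = 0.0679), and control 7 overlapped the GK range. Without control 7 it passed at -1.43 (adjusted p = 0.0496), where 4.07% of all genes passed. Kcnq5 was at 7.78, 6.29, 9.59 and 10.4 CPM in controls and 3.36, 3.98, 17.9 and 4.83 CPM in GK. GK 7, 8 and 10 were below all controls and GK 9 above them all, which left -0.18 ± 0.53 (edgeR adjusted p = 0.846). Of the arterial Kcna genes, Kcna5 had 6.97, 11.9, 5.698 and 6.75 CPM in controls and 5.11, 8.17, 6.32 and 7.85 CPM in GK (-0.19 ± 0.27, edgeR adjusted p = 0.685). Kcna2 had 1.76, 2.31, 3.42 and 2.32 CPM in controls and 1.24, 3.71, 9.48 and 0.982 in GK (0.65 ± 0.67, edgeR adjusted p = 0.554), and the value turned to -0.29 without GK 9. Among the other tested Kv genes, Kcnd1, Kcns3, Kcng2 and Kcnc4 lay between -0.35 and 2.93 and did not pass. Of these, Kcng2, a silent subunit, had 5.21, 2.87, 1.34 and 2.798 CPM in controls and 6.28, 10.8, 2.45 and 8.98 CPM in GK (1.22 ± 0.52, edgeR adjusted p = 0.168). It passed without GK 9 (1.52, adjusted p = 0.0360), where 22.1% of all genes passed. Kcnc1, Kcnf1, Kcnh3, Kcnh4, Kcnh5 and Kcns1 were below 1 CPM in all libraries, and Kcna4, Kcng1, Kcng3 and Kcnv2 were too low to test.

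Of the 7 KCa genes, 6 were tested and Kcnt2 alone passed; their median was -0.59. Kcnma1, the BK pore, had 47.2, 85.97, 75.7 and 70.3 CPM in controls and 14.2, 19.6, 56.5 and 34.2 CPM in GK, means of 69.8 ± 16.4 and 31.1 ± 18.9. GK 9 lay above control 7, and the other 3 GK libraries were below all controls. The difference of -1.16 ± 0.41 did not pass (edgeR adjusted p = 0.113), and without GK 9 it was -1.61 (adjusted p = 0.0146). Leaving out any other single library left it short of the threshold, with adjusted p between 0.118 and 0.26. With all 8 libraries Kcnma1 passed DESeq2's test (-1.14, adjusted p = 0.0471) and the fit with the library number as a block (-1.32, adjusted p = 0.0286). In those fits 15.7% and 17.3% of all genes passed. Without GK 9, 22.1% of all genes passed, against 7.28% with it. Kcnn3, the small-conductance endothelial channel, had 6.17, 4.07, 18.3 and 5.46 CPM in controls and 18.2, 12.2, 52.2 and 8.98 CPM in GK. Library 9 was the highest in each group, and the difference of 1.43 ± 0.66 did not pass (edgeR adjusted p = 0.2). It was 0.64 without GK 9 (adjusted p = 0.384) and 2.13 without control 9 (adjusted p = 0.105). It passed with both libraries numbered 9 left out (1.32, adjusted p = 0.0226) and with the fat marker score as a covariate (3.25, adjusted p = 0.0195). In those 2 fits 18.7% and 4.93% of all genes passed. Kcnn4, the intermediate-conductance endothelial channel, was at 2.64, 3.33, 2.81 and 4.299 CPM in controls and 2.04, 1.85, 5.16 and 1.89 CPM in GK (-0.25 ± 0.39, edgeR adjusted p = 0.702). Kcnn1 and Kcnt1 averaged 2.13 and 3.16 CPM in controls and did not pass, and Kcnn2 was below 1 CPM in all libraries. Of 7 endothelial markers in the table, 1 (Kdr) was higher in GK and the rest did not pass, with a median of 0.27.

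Of the 15 auxiliary genes, 9 were tested and Kcnmb1 alone passed; their median was -0.34. Kcnab1, a helper of Kcna channels, had 5.14, 6.01, 10.1 and 1.98 CPM in controls and 3.94, 1.72, 9.03 and 3.55 CPM in GK (-0.34 ± 0.58, edgeR adjusted p = 0.726). Kcne4, which modulates vascular KCNQ channels, had 2.202, 2.03, 2.95 and 3.48 CPM in controls and 1.46, 0.824, 3.097 and 1.06 CPM in GK (-0.72 ± 0.43, edgeR adjusted p = 0.311). Both pairs of groups overlapped. Kcnip1 was at 2.202, 0.555, 2.75 and 1.84 CPM in controls and 0.219, 0.755, 1.29 and 0 in GK, with -1.67 ± 0.84 (edgeR adjusted p = 0.237), and it shares its locus with Kcnmb1. The other tested members, Kcnab2, Kcne2, Kcnip3 and Kcnip4, lay between -0.52 and 0.47. Kcnmb4 averaged 0.365 ± 0.266 and 1.81 ± 2.55 CPM with 5.61 CPM in GK 9, Kcne3, Kcne5 and Kcnab3 were too low to test, and Kcnmb2 and Kcnrg stayed below 1 CPM in all libraries.

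Levels of the BK channel genes were set beside those of the smooth muscle markers. Summed over the 8 markers, CPM were 4743, 9985, 12780 and 12720 in controls and 2476, 3220, 7202 and 6149 in GK, and the median log2 fold change of the markers was -1.06, close to that of Kcnma1. Per 1000 CPM of these markers, Kcnma1 was 7.504 ± 2.13 in controls and 6.31 ± 1.04 in GK, and Kcnh2 was 4.41 ± 0.844 and 4.43 ± 0.967. For both genes the groups overlapped on this scale, and Kcnma1 ran from 5.53 to 9.95 within the controls. Kcnmb1 was 4.53 ± 0.565 in controls and 2.56 ± 0.324 in GK, and here the groups stayed apart. Other channel genes on this scale had higher means in GK, with overlapping groups. These were Kcnj8 (4.38 ± 2.58 in controls and 8.31 ± 4.72 in GK), Kcna5 (0.910 ± 0.501 and 1.69 ± 0.75) and Kcnq5 (0.960 ± 0.460 and 1.465 ± 0.721). Kcnq1 (1.07 and 1.16) and Kcne4 (0.293 and 0.362) differed less. With the smooth muscle marker score as a covariate, the Kcnmb1 difference was -0.97 (adjusted p = 0.0779) and that of Kcnma1 -0.45 (adjusted p = 0.451). The ratio of Kcnmb1 to Kcnma1 in FPKM was 1.06, 1.03, 1.35 and 1.84 in controls and 0.808, 0.986, 0.730 and 0.865 in GK, again without overlap. These ratios were chosen after their values were seen and were given no test. Summed fibroblast markers were at 3149 to 6736 CPM in controls and 924 to 3300 CPM in GK (median log2 fold change -1.13), and 2 of the 6 tested passed. Their part in the channel values was not tested.

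**Figure D4:**
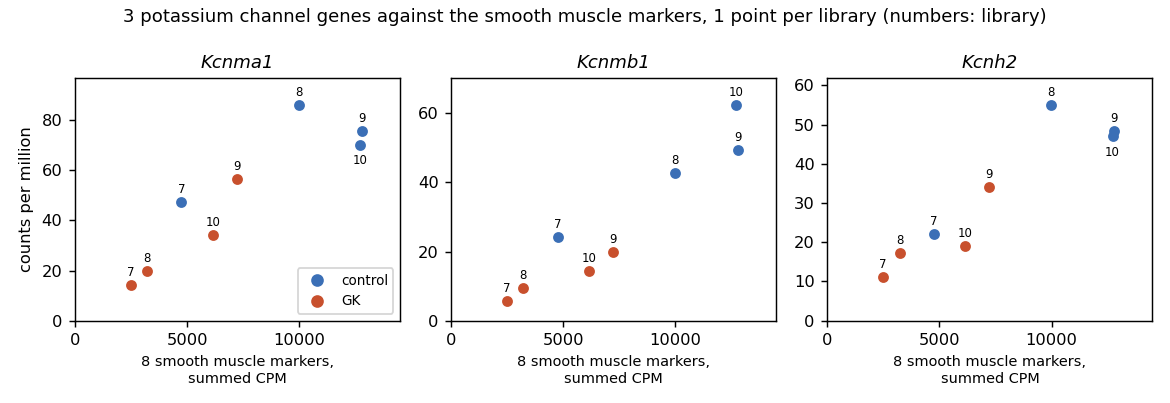
CPM of 3 potassium channel genes (vertical) against the summed CPM of 8 smooth muscle markers (horizontal), 1 numbered point per library, blue for control and red for GK. Kcnma1 and Kcnh2 are lowest in GK 7 and GK 8, which have the least marker CPM. Control 7 is the only control inside the GK range of marker CPM. Kcnmb1 is at 24.1 CPM in control 7 at 4743 marker CPM and at 14.3 CPM in GK 10 at 6149.

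GK 9 was the library with most channel genes at their peak. It held the highest CPM for 35 of the 80 (43.8%), against 19.2% of all genes. For 20 of these it was at least 3-fold above the next library, and only Kcnc4 of the 20 was among the tested genes. Kcnc4, a channel of skeletal muscle and neurons, had 23.4 CPM in GK 9 and 0.478 to 1.34 elsewhere, and its difference of 2.93 ± 1.24 (edgeR adjusted p = 0.169) became -0.02 without GK 9. Kcnq3, a subunit of the M-current channel of neurons, had 22.1 CPM there and at most 0.603 CPM in any other library. Kcnj12, another inward rectifier of arteries, had 13.2 CPM against 0.409 to 1.58 elsewhere. Kcna7, known from skeletal muscle and heart, had 5.48 CPM against 0.134 to 0.730, and Kcnb2, a neuronal delayed rectifier, 3.94 against 0 to 0.292. Kcna1, Kcna6, Kcnh6, Kcnh7 and Kcnh8 behaved alike, with 8.39, 5.23, 2.97, 1.29 and 3.94 CPM in GK 9. Kcnk9 had 60 counts in GK 9 and 0 in every other library, and its locus lies within that of Trappc9. GK 9 is also the library with the skeletal muscle and neuron markers. The noradrenaline enzyme Dbh was at 411 CPM there and at 0 to 5.23 CPM elsewhere, and the fast muscle gene Actn3 at 1121 CPM and 0 to 1.21. The part of these markers in the channel values was not tested. Without GK 9, 37 channel genes had a mean of at least 1 CPM, and 4 were higher and 9 lower in GK by the same test (32.5% of the 40 tested). Of all genes, 22.1% then passed, against 7.28% with GK 9.

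**Figure D5:**
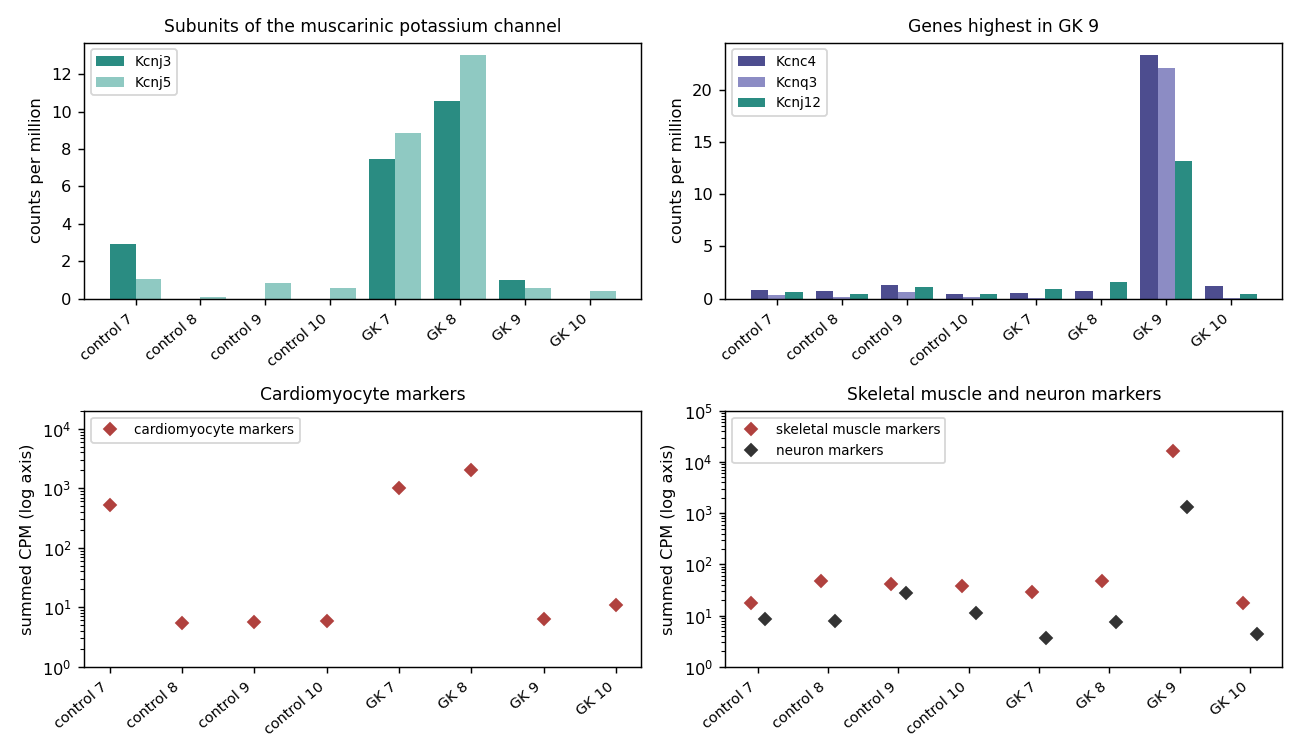
Upper panels show CPM by library for Kcnj3 and Kcnj5 (left) and for Kcnc4, Kcnq3 and Kcnj12 (right) on linear axes from 0; lower panels show summed marker CPM of heart (left) and of skeletal muscle and neurons (right) on log axes. Kcnj3 and Kcnj5 peak in GK 7 and GK 8, where heart markers sum to 1010 and 1994 CPM, and the 3 genes on the right peak in GK 9, where skeletal muscle markers sum to 16650 CPM.

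Genes that work with these channels were followed from lists of partners, calcium sources and kinases. Of 9 listed channel partners, 7 were in the table and 4 were tested. Lrrc52, a leucine-rich subunit that shifts the voltage range of Slo channels, passed and was higher in GK. It had 1.69, 2.403, 1.14 and 1.02 CPM in controls and 20.9, 10.8, 2.58 and 19.9 CPM in GK, a difference of 3.12 ± 0.63 (edgeR adjusted p = 0.0273), with GK 9 barely above the controls. The others tested were Abcc8, Abcc9 and Amigo1, a partner of voltage-gated channels at 35.96 ± 8.15 and 48.5 ± 2.599 CPM (edgeR adjusted p = 0.137). Of the 9 calcium channels and release channels that feed the BK channel, all were tested and none passed, with a median of 0.03. Itpr1 and Ryr2 were the highest, with 0.61 ± 0.24 and 0.12 ± 0.51 (edgeR adjusted p = 0.146 and 0.901). The nearest to the threshold was Cacna1c, the L-type calcium channel pore of arterial muscle, at 56.01, 92.6, 85.6 and 95.9 CPM in controls and 44.96, 51.9, 57.2 and 47.95 CPM in GK. Its difference was -0.71 ± 0.18 (edgeR adjusted p = 0.0511), and it was named after its values were seen. Of 8 kinases and scaffolds, 7 were tested and none passed, with a median of 0.25. Cav1 and Wnk1, the highest, had -0.02 ± 0.23 and 0.22 ± 0.17 (edgeR adjusted p = 0.961 and 0.418).

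The authors' deposited table calls 8 of the 80 channel genes (10%), beside 5.4% of all genes in it. By the authors' deposited table these include Kcnh1 and Kcnj5, higher, and Kcnc2, Kcnmb1, Kcng4, Kcnt2 and Kcnma1, lower in GK, with q-values from 2.69e-10 for Kcnh1 to 0.0404 for Kcnma1. The 5 that passed here are among these 8. For the term potassium channel activity, the authors' deposited table lists 11 called of 114 annotated genes (q = 0.177), and for the voltage-gated potassium channel complex 8 of 67 (q = 0.124).

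The authors' deposited table of lncRNA and target genes names 2 of the 80, Kcng4 with 45 lncRNA and Kcnj14 with 20, all listed as acting in trans. The table holds only lncRNA that the authors called, so their number says nothing about the channel genes. Of the 60 distinct lncRNA, 25 could be tested here, and 13 were higher and 3 lower in GK. Having been called by the authors in these same libraries, they were likely to pass again, so this is no support. The share of all lncRNA tested that passed (2.74%) is no fair measure beside them. The lowest adjusted p among those paired with Kcng4 were those of NONRATT001106.2, which fell by 2.54 (edgeR adjusted p = 0.00305), and of NONRATT020568.2, which rose by 2.81 (edgeR adjusted p = 0.0032). MSTRG.17554.1, also paired with Kcng4, rose by 2.11 (edgeR adjusted p = 0.00395). MSTRG.16205.16 and MSTRG.42230.1, paired with both channel genes, rose by 3.18 and 3.78 (edgeR adjusted p = 0.00357 and 0.00641). Within channel loci, 52 lncRNA overlapped 29 of the 80 genes. Of these 17 were tested, and the one in Kcnh1 was the only one to pass. In the Kcnma1 locus 6 were tested, from -1.36 to -0.35, and none passed.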

How the data were processed

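Total RNA of thoracic aorta in 8 libraries (4 Wistar, 4 GK) was grouped by the strain, group and title labels. Per the file headers, the authors deposited whole-number counts for genes and for lncRNA transcripts, FPKM per library, log2 ratios of group means of FPKM, and p-values and q-values named edgeR. The authors' FPKM denominators followed the total gene counts. The submitters' processing notes name Bowtie 0.12.2 and 2 mouse builds (mm8, mm9) without a role. The rat build, the strand setting and the counter are not given in the sources used here. No sample column was unmapped.

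From the counts, genes were tested in R 4.3.3 with edgeR 4.0.16 (filterByExpr, TMM factors from 0.826 to 1.24, glmQLFit, glmQLFTest and no covariate), fitted over all genes with Benjamini-Hochberg adjustment and a threshold of 0.05; lncRNA were fitted the same way on their own totals of 1185872 to 2031376. The SE was taken from the log2 fold change and the F statistic. Alternatives were DESeq2 1.42.0 (test and size factors), other factors, other filters, marker scores as covariates, the library number as a block and each library left out. On simulated counts of 13673 genes with the real depths, 86% of 4-fold and 34% of 2-fold changes were recovered. The changed genes were drawn only from the better counted ones, so these shares do not hold for weakly expressed genes. The marker scores are mean log2 CPM with a prior count of 2 over 14 fat and 8 smooth muscle markers found.

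The channel genes, the marker and partner lists and the alternatives were chosen with earlier results of these data known. Named genes were those past the test, the 3 with the highest mean CPM of each family and those with a textbook role in arteries (Kcnk6 is not analysed here, and some channel genes that enter the counts and medians are not reported here by name or in plots); Kcnj3, Kcnq3, Kcnc4, Kcna7, Kcnb2, Kcnip1 and Kcng2 were added after their values were seen. The lists were smooth muscle, endothelial, fibroblast, adipocyte, brown adipocyte, skeletal muscle, cardiomyocyte, Schwann cell, neuron, macrophage, mast cell and mesothelial markers, channel partners, calcium sources and kinases and scaffolds. Of the markers named nowhere else, members past the test were Col1a1 and Dpt (fibroblast, both lower in GK), Mbp (Schwann cell, higher), Lyz2 (macrophage, lower) and none of the mast cell and mesothelial lists. Same-numbered libraries correlated at r = 0.42, 0.07, 0.55 and 0.02 after group means were removed. The values of libraries 7 and 9 were the highest of any control with any GK library, but control 8 went best with GK 10 (r = 0.41). Whether the numbers pair the libraries is therefore not settled. Promoters are RefSeq sequences on GRCr8. Protein motifs were not analysed here.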

Additional observations from a re-analysis of the deposited data

Results flagged for a closer look

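Of 64 groups of 4 libraries checked (32 named channel genes in each group), 12 had 1 library far from the other 3, with a gap above the 95% critical value of Dixon's test. Chance flags about 1 in 20 groups, but that share cannot be set against these: Kcnq3, Kcnc4, Kcna7, Kcnb2 and Kcnj3 were added after their values were seen and gave 6 of the 12, 4 of them in GK 9. GK 9 gave 7 of the 12, all on the high side: Kcnc4 at 23.4 CPM, Kcnq3 at 22.1, Kcnq5 at 17.9, Kcnj12 at 13.2, Kcna7 at 5.48, Kcnn4 at 5.16 and Kcnb2 at 3.94 CPM. GK 10 gave 2, Kcnh1 at 5.06 CPM, below the other GK libraries, and Kcnc2 at 0.0755 CPM, a single count where the others had 0. In controls, Kcnn3 was at 18.3 CPM in library 9, Kcnj3 at 2.94 CPM in library 7 and Kcna7 at 0.555 CPM in library 8, each above the other 3. Since genes within a library are not independent, the 7 flags of GK 9 are not 7 separate events.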

How the results depend on the processing

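Kcnh1 and Kcnc2 kept direction and call in all alternatives run, and Kcnmb1, Kcng4 and Kcnt2 kept direction but lost the call in 9 of 18, 10 of 17 and 8 of 18. Against 1 higher and 4 lower channel genes, DESeq2's test called 6 and 7, the fit with the replicate block 5 and 7, the fit without both libraries numbered 9 called 4 and 8, the fat marker score as a covariate 3 and 1, the smooth muscle score 1 and 1 and a filter at a mean of 1 CPM 1 and 2. The share of all genes called moved too, from 7.28% to 15.7%, 17.3%, 18.7%, 4.93%, 0.753% and 6.37% in that order. Leaving out each library in turn gave 1 to 4 higher and 1 to 9 lower, the highest without GK 9, beside 0.974% to 22.1% of all genes. Whether the numbers pair the libraries is not settled, and a call gained or lost under the block is no measure of the effect. Among the lncRNA paired with channel genes, all called by the authors in these libraries, the block put 18 past the test against 16. Leaving out libraries gave 8 to 22. The cause of these shifts was not tested.

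Where low genes not tested above entered, the Kv median was 1.24 with DESeq2 and 1.23 with no filter, and the K2P median 1.20 and 1.15. The Kv median was 0.23 at a mean of 1 CPM, 0.26 with the smooth muscle score and -0.59 without both libraries 9, where those of K2P and KCa were 0.50 and -1.20. The auxiliary median was 0.39 with the fat score. Leaving out libraries gave -0.55 to 0.01 for Kv, -0.44 to 0.29 for K2P and -1.18 to -0.33 for KCa.

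None of the changes of sign concerned a gene past the test. With the fat score these log2 fold changes turned: Kcnk3 -0.61, Kcnk5 0.16, Kcnab1 0.45, Kcnq5 1.10, Kcnj2 0.90, Kcnn4 0.53, Kcne4 0.39, Kcnj3 -0.38 and Kcng2 -0.45. With the smooth muscle score these turned: Kcnab1 0.09, Kcnq5 0.38, Kcnj2 0.09 and Kcnn4 0.21. Kcna2 was -0.10 without both libraries 9. With libraries left out in turn the ranges crossed 0 for Kcnab1 (-0.91 to 0.06), Kcna2 (-0.29 to 0.97), Kcna5 (-0.31 to 0.08), Kcnq5 (-1.06 to 0.06), Kcnj2 (-0.58 to 0.14) and Kcnc4 (-0.02 to 3.31). Median shifts over all genes were -0.16 to 0.02 across settings, -0.16 with library totals alone. In simulated counts 34% of 2-fold changes in the better counted genes were recovered, so a channel gene that missed the test may still differ.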
